A study of Mus musculus with 8 samples.

Results

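Semaphorins, plexins and neuropilins were followed in RNA of mouse retinal ganglion cells, the neurons whose axons form the optic nerve. The genes were taken by symbol from the deposited table, as every row that begins with Sema and a digit or with Plxn, together with Nrp1 and Nrp2. This gave 31 of 24942 genes: 7 secreted class 3 semaphorins, 13 membrane-bound semaphorins of classes 4 to 7, 9 plexins and 2 neuropilins. The data were 4 NPC1-deficient and 4 wildtype libraries, all from mice at postnatal day 8, with BALB/cNctr-Npc1m1N/J given as the strain and no treatment in the labels. NPC1 carries cholesterol out of the lysosome, and mutations in its gene cause Niemann-Pick disease type C. The comparison asks how expression in this neuron differs without NPC1. Cells were purified by immunopanning, which captures a cell type on dishes through surface antibodies, and were lysed on the dish. The labels do not say whether a library holds 1 mouse or several, and the p-values below therefore rest on the spread among these libraries, which may be technical.

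Semaphorins are extracellular guidance cues, best known for turning or collapsing growing axons. Membrane-bound semaphorins bind plexins directly, whereas most class 3 semaphorins first bind a neuropilin, which then signals through a class A plexin. Plexins carry a GTPase-activating domain inside the cell and act on the cytoskeleton and on integrins. In the retina these cues are known for sorting neurites into layers of the inner plexiform layer, for shaping blood vessels and for steering ganglion cell axons at the optic chiasm.

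No member passed the threshold between NPC1-deficient and wildtype libraries. The values of 3 members, Sema3d, Sema4f and Nrp1, did not overlap between the groups. RefSeq holds windows from 250 bases before to 50 bases after an annotated start for 26 of the 31 members, 37 windows in all (build GRCm38.p6). The windows of these 3 genes are shown because they belong to the members whose groups were apart. RefSeq starts can differ from the GENCODE gene positions given further on. The Sema3d window ends at 12383215, before the GENCODE gene start at 12383385. That of Nrp1 begins at 128358823, inside the gene, which starts at 128358604. Capitals mark CCAAT and GGGCGG on either strand, the letters of the CCAAT box and the GC box, which many promoters carry.
Sema3d, chr5:12382916-12383215, plus strand: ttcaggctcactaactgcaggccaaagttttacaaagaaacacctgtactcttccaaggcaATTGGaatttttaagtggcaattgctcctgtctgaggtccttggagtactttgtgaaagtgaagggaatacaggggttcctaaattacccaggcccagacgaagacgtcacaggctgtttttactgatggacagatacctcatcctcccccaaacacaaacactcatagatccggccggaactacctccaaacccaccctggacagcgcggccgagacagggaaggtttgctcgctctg
Sema4f, chr6:82939720-82940019, minus strand: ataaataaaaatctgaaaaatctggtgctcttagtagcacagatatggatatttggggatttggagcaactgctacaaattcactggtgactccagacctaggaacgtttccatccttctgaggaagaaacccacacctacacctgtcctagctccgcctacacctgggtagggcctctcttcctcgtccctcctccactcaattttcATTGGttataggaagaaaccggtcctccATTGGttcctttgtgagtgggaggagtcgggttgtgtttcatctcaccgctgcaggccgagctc
Nrp1, chr8:128358823-128359122, plus strand: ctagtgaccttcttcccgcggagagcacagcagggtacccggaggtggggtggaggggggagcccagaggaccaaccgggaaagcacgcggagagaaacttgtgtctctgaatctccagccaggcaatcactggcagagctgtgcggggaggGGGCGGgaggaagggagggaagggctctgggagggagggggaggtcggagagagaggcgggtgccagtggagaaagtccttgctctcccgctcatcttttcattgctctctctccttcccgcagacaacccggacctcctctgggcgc
The Sema3d window holds 1 CCAAT and no GGGCGG, that of Sema4f holds 2 CCAAT and no GGGCGG, and that of Nrp1 holds 1 GGGCGG and no CCAAT. Over the whole family GGGCGG was in 27 of 37 windows (73.0%), against 35.7% of all 32851 RefSeq windows. CCAAT was in 7 of 37 (18.9%), against 37.4%. TATAAA, the letters of the TATA box, was in 0 of 37 member windows, against 13.6% of all. The median GC content was 63.7% for member windows and 52.7% for all windows. These are matches of letters in a window and no measure of binding.

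Library totals ran from 33030175 to 44050118 reads, so 3 reads, which a value of 0 allows, were worth 2.69 to 3.42 normalized reads. Npc1 was read first as a check of the labels: it averaged 85.9 ± 35.96 normalized reads in NPC1-deficient and 787 ± 69.1 in wildtype libraries (SD, n = 4 each). Its exact two-sided permutation p was 0.0286, the smallest that 4 against 4 allows. The 16 ganglion cell markers summed to between 572752 and 600178 in NPC1-deficient and between 542405 and 574840 in wildtype libraries, and none was at 0. Their median log2 fold change was 0.06, with 13 positive and 3 negative. Markers of several other retinal cell types had lower values in NPC1-deficient libraries. The 14 microglial markers, all with a negative fold change, summed to 2563 to 4164 in NPC1-deficient and 3612 to 14574 in wildtype libraries. Wildtype 1, at 3612, lay within the NPC1-deficient range, and wildtype 2 to 4 had 9721, 8372 and 14574. The 12 rod markers, also all negative, summed to 3531 to 4322 in NPC1-deficient and 5022 to 11040 in wildtype libraries. The 12 Mueller glia and astrocyte markers summed to 22147 to 22748 in NPC1-deficient and 23664 to 25455 in wildtype libraries, without overlap. Of their 10 tested, 7 were negative and 3 positive. Only Apoe passed, at -1.31 (limma adjusted p = 0.0482), and microglia are also known to express it. Apoe counts in these sums, at 639 to 1018 normalized reads in NPC1-deficient and 1340 to 3143 in wildtype libraries. The lack of overlap rests on it. Without Apoe (751 in NPC1-deficient 1 and 1810 in wildtype 2), the sum of wildtype 2 falls below that of NPC1-deficient 1. Of 10 amacrine markers tested, 7 were negative, with a median log2 fold change of -0.80, while their sums overlapped, at 37632 to 41995 in NPC1-deficient and 39689.5 to 46124 in wildtype libraries. The median was -0.62 over 4 cone markers tested, all negative, and -0.34 over 11 bipolar markers, 10 of them negative. Isl1 (-0.17, SE 0.12) stands in the bipolar and the ganglion cell list and counts as negative in both. The median was -0.08 over 6 endothelial markers, 0.14 over 5 of pericytes and fibroblasts and 0.08 over 5 of the oligodendrocyte lineage. Xist, made in female cells, ran from 0 to 68.1 in NPC1-deficient and from 18.2 to 595 in wildtype libraries. The sum of 4 Y-linked genes, made in male cells, ran from 2597 to 3788 in NPC1-deficient and from 45.6 to 3093 in wildtype libraries. Reads of both kinds stood in NPC1-deficient 1 (Xist 68.1, Y-linked 2597), wildtype 3 (238 and 1241) and wildtype 4 (164 and 1508). The mix of sexes was therefore uneven between the groups. Plxna3 and Plxnb3 lie on the X chromosome. The part of these differences in the values below was not tested. In such bulk samples, fewer cells of a type and less RNA per cell cannot be told apart.

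The family was broadly present in these cells, and its levels spanned a wide range. Values were divided by exon length to compare genes. On this scale Sema7a stood highest, at 544 ± 27.6 normalized reads per kb in NPC1-deficient and 569 ± 59.1 in wildtype libraries (SD, n = 4 each). Sema6a followed at 508 ± 24.8 and 491 ± 49.4 in the same order, and their libraries overlapped in both groups. The next were Sema3e at 278 ± 27.5 in NPC1-deficient and 273 ± 10.6 in wildtype, and Sema4g at 259 ± 11.5 and 269.7 ± 27.6, which again lay within each other's spread. At the low end stood Sema3c at 2.86 ± 1.05 in NPC1-deficient and 4.23 ± 1.74 in wildtype libraries, and Plxna4 at 2.26 ± 0.83 and 1.87 ± 0.63. Plxnb3, known as a receptor of Sema5a, was listed between 1.03 and 2.72 normalized reads in NPC1-deficient libraries and between 0 and 6.53 in wildtype libraries. It was the one member whose mean fell short of 10 and was not tested.

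By role, membrane-bound semaphorins made up most of the family's RNA per kb. Their 13 genes summed to 2611 ± 136 normalized reads per kb in NPC1-deficient and 2548 ± 131 in wildtype libraries (SD, n = 4 each), or 64.2% and 64.9% of the family. The 9 plexins summed to 670.4 ± 56.2 and 623 ± 42.6, the 7 secreted semaphorins to 551 ± 53.4 and 548 ± 34.95, and the 2 neuropilins to 232 ± 28.1 and 206 ± 16.9, NPC1-deficient first. Each of these class sums overlapped between the groups.

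**Figure D1:**
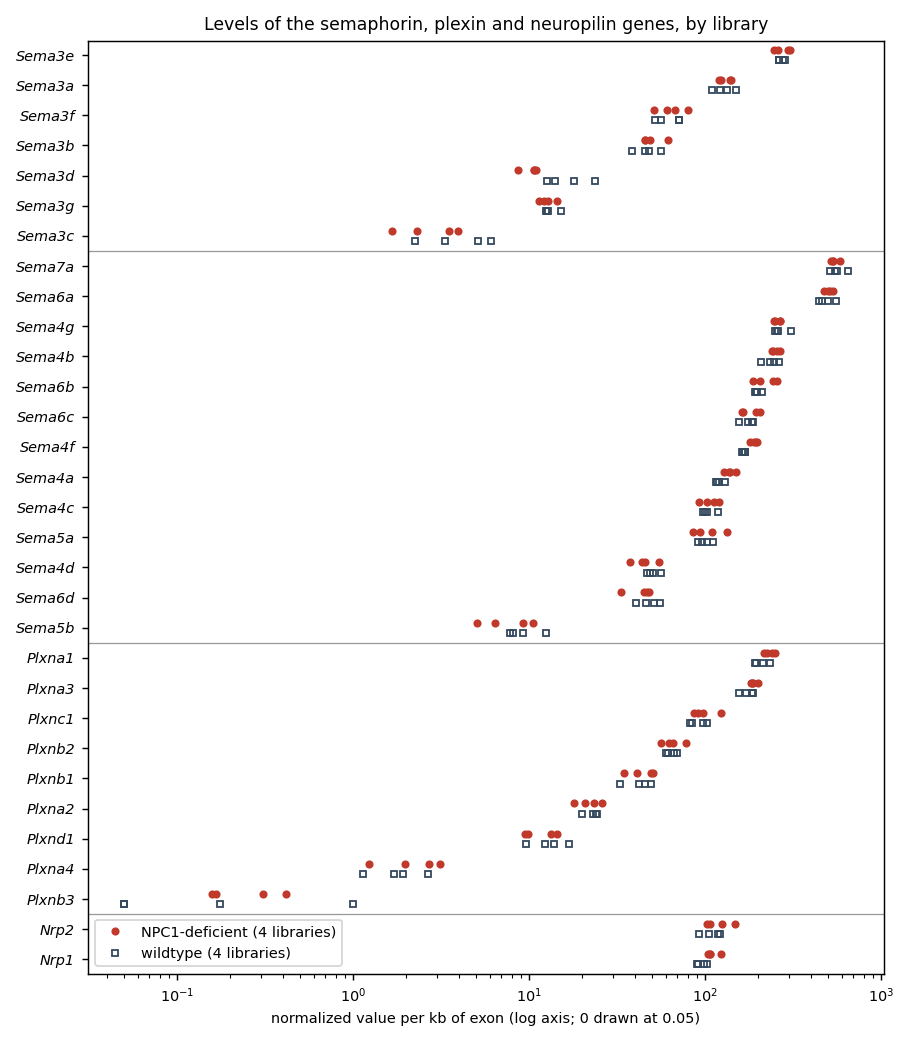
Level of each of the 31 genes in every library, as normalized value per kb of exon on a log axis; red circles are the 4 NPC1-deficient libraries, open squares the 4 wildtype libraries, and horizontal lines divide the secreted semaphorins, membrane semaphorins, plexins and neuropilins. Sema7a and Sema6a lie near 500 while Plxna4 and Sema3c lie below 10, and in most genes the 2 groups overlap.

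Of the 30 members tested, 0 passed a limma adjusted p of 0.05, against 0.104% of all 15386 genes tested (16 genes). By direction, 0 members passed higher, against 0.039% of all genes, and 0 lower, against 0.065%. An unadjusted limma p under 0.05 was found for 4 members (13.3%), against 6.76% of all genes. The values of 3 members (10%) did not overlap between the groups, against 4.27% of all genes. The edgeR quasi-likelihood test on recovered reads also called 0 members (0.104% of all genes), and DESeq2 called 1, Sema3d (1.6% of all genes). The median log2 fold change, NPC1-deficient minus wildtype, was 0.04 over the members and 0.0050 over all genes tested. Of the members, 20 (66.7%) were positive and 10 negative, against 52% of all genes positive. Of the 16 ganglion cell markers 13 were positive, with a median of 0.06. For 25 of the 30 members (83.3%) the 95% interval of the fold change lay within 0.5 either way on the log2 scale, against 72.1% of all genes.

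**Figure D2:**
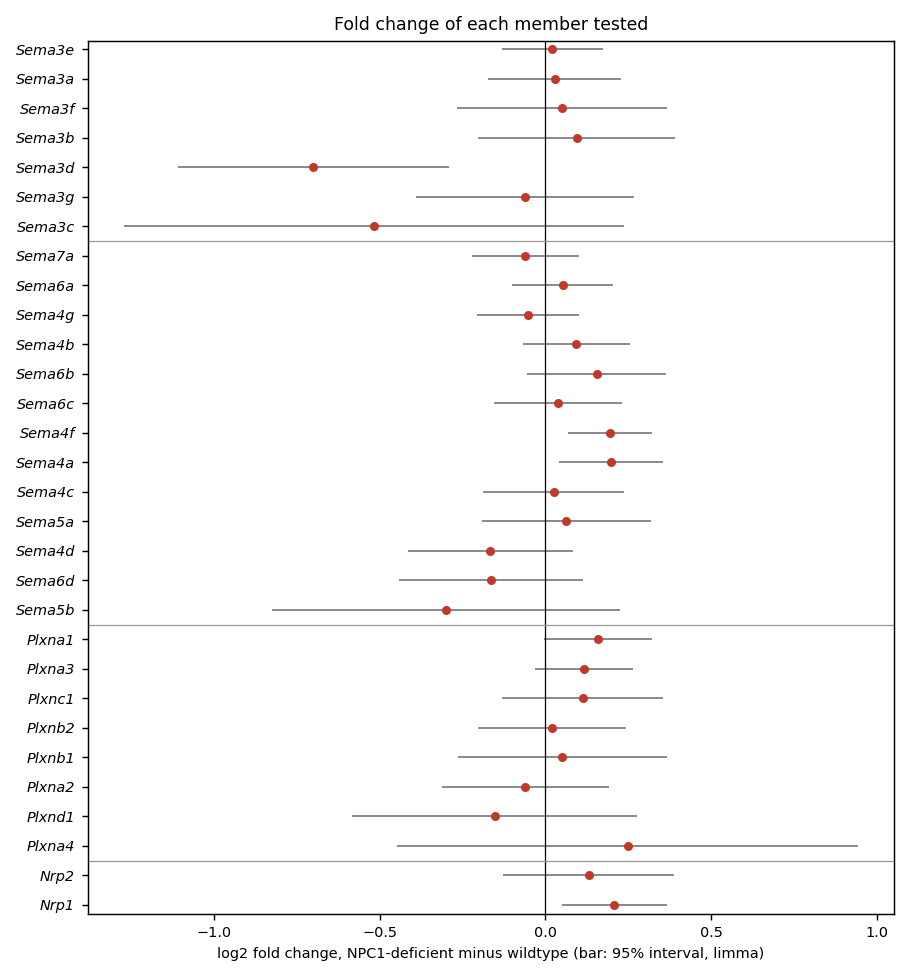
Log2 fold change, NPC1-deficient minus wildtype, for the 30 members tested; points are limma estimates from 4 libraries a group and bars their 95% intervals, with no adjustment for the number of genes. The intervals of Sema3d, Sema4f, Sema4a and Nrp1 leave out 0, and none of the 4 passed the adjusted threshold.

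Among the secreted ligands, Sema3d was the member furthest apart between genotypes. In zebrafish its product is known for guiding retinal axons. Sema3d (chromosome 5, 12383385 to 12588948, plus strand, mm10) had 74.4, 94.1, 91.6 and 91.9 normalized reads in NPC1-deficient 1 to 4, against 121, 155, 205 and 109 in wildtype 1 to 4. All 4 NPC1-deficient libraries lay below all 4 wildtype libraries, and the wildtype libraries were spread more widely. The NPC1-deficient mean was 59.7% of the wildtype mean, and the log2 fold change was -0.70 (SE 0.19, 95% interval -1.11 to -0.29, limma adjusted p = 0.190). It did not pass with the edgeR quasi-likelihood test (adjusted p = 0.144), but did with DESeq2 (adjusted p = 0.0275), and over all alternatives its adjusted p ran from 0.0275 to 0.476. In libraries 1 and 2 alone it was -0.71, and in libraries 3 and 4 alone -0.70. It was smallest without wildtype 3, at -0.53. Beside it, the 6 horizontal cell markers summed to 1077 to 1478 in NPC1-deficient and 1722 to 3117 in wildtype libraries, with wildtype 3 highest in both measures. Of these, 4 were tested, 3 were negative and 1, Calb1, passed at -0.84 (limma adjusted p = 0.0477). The defining markers Lhx1 and Onecut1 averaged 4.31 and 6.95 in NPC1-deficient and 8.38 and 8.25 in wildtype libraries, too low to test. The other defining marker, Onecut2, was the positive one, at 0.37 (SE 0.28). Amacrine markers lay lower as well: Gad1 had 191 to 584 normalized reads in NPC1-deficient and 662 to 1692 in wildtype libraries, and Slc32a1 had 107 to 267 and 320.3 to 856 in the same order, both highest in wildtype 3. The defining marker Gad2 overlapped, at 408 to 649 in NPC1-deficient and 553 to 579.5 in wildtype libraries, and Tfap2b stands in the horizontal and the amacrine list. Whether other cells had a part in the Sema3d values was not tested.

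The 2 most abundant secreted semaphorins lay close to even between the genotypes. Sema3e, which ganglion cells are known to release and which acts on retinal vessels through Plxnd1, had 2769.6, 2826, 2306 and 2424 normalized reads in NPC1-deficient 1 to 4, against 2459, 2642, 2596 and 2446 in wildtype 1 to 4. The NPC1-deficient libraries enclosed the wildtype ones, with libraries 1 and 2 above and 3 and 4 below all 4 of them. Sema3e had a log2 fold change of 0.02 (SE 0.07, 95% interval -0.13 to 0.17). Sema3a, the classic growth cone collapsing ligand of Nrp1, had 1928, 1961, 1677 and 1724 in NPC1-deficient 1 to 4, against 1857, 2098, 1703 and 1525 in wildtype 1 to 4. The groups overlapped throughout, and the log2 fold change was 0.03 (SE 0.09, 95% interval -0.17 to 0.23).

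The other secreted members were less abundant. Sema3f, a ligand of Nrp2, had a log2 fold change of 0.05 (SE 0.15), Sema3b of 0.09 (SE 0.14) and Sema3g, another ligand of Nrp2, of -0.06 (SE 0.15). Sema3c, known for its action on vessels and neural crest, had -0.52 (SE 0.35), with 12.01 to 28.1 normalized reads in NPC1-deficient and 16.1 to 43.8 in wildtype libraries. Its groups overlapped, and its 95% interval ran from -1.27 to 0.24. Libraries 1 and 2 alone gave -0.0871 for Sema3c, and libraries 3 and 4 alone -0.95.

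Among the membrane-bound ligands, Sema4f and Sema4a stood a little higher in NPC1-deficient libraries, neither past the threshold. Sema4f, whose product binds the postsynaptic scaffold PSD-95, had 1044, 1036, 957 and 1003 normalized reads in NPC1-deficient 1 to 4, against 867, 894, 899.6 and 869 in wildtype 1 to 4. The lowest NPC1-deficient library exceeded the highest wildtype library, and the wildtype values lay within a narrow range. The log2 fold change of Sema4f (chromosome 6, 82911885 to 82939769, minus strand, mm10) was 0.19 (SE 0.06, 95% interval 0.07 to 0.32, limma adjusted p = 0.283). It ran from 0.18 to 0.22 when single libraries were left out. Sema4a, which photoreceptors need for survival in mice, had 697, 744, 817 and 751 in NPC1-deficient 1 to 4, against 637, 707, 649.8 and 628 in wildtype 1 to 4. NPC1-deficient 1 and wildtype 2 overlapped and the rest were apart. The log2 fold change of Sema4a was 0.20 (SE 0.07, 95% interval 0.04 to 0.35, limma adjusted p = 0.498), at 0.10 within libraries 1 and 2 and 0.29 within libraries 3 and 4. Beside it, the summed rod markers were higher in every wildtype library than in any NPC1-deficient one. Whether rods or other cells had a part in the Sema4a values was not tested.

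**Figure D3:**
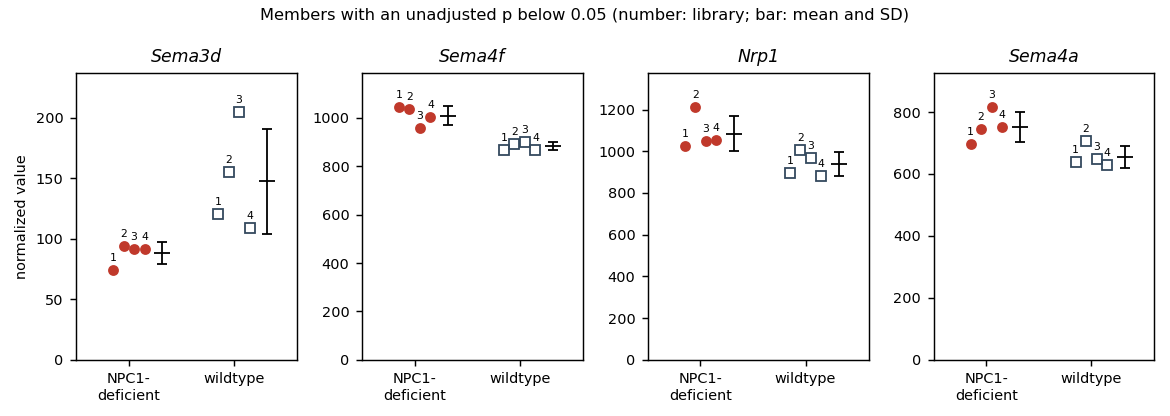
Normalized values of Sema3d, Sema4f, Nrp1 and Sema4a in each library; red circles are NPC1-deficient and open squares wildtype, the number is the library's replicate number, and the bar gives the mean and SD of 4 libraries. The groups do not overlap in Sema3d, Sema4f and Nrp1, and in Sema4a NPC1-deficient 1 lies below wildtype 2.

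The 2 most abundant members of the family were membrane semaphorins and lay close to even. Sema7a, a lipid-anchored semaphorin that signals through Plxnc1 and integrins, had 1773, 1927, 1762 and 1719 normalized reads in NPC1-deficient 1 to 4, against 1851, 1815, 2152 and 1693 in wildtype 1 to 4. Its log2 fold change was -0.06 (SE 0.07, 95% interval -0.22 to 0.10), and the high wildtype 3 stood apart from 7 libraries that overlapped. Sema6a, the ligand of class A plexins known for sorting inner retinal layers, had 4521, 4709, 4188 and 4404 in NPC1-deficient 1 to 4, against 4868, 4424, 3897 and 4049.6 in wildtype 1 to 4. The groups overlapped, with a log2 fold change of 0.05 (SE 0.07, 95% interval -0.10 to 0.20).

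The remaining 9 membrane semaphorins had fold changes between -0.30 and 0.15, with none at an unadjusted p under 0.05. In class 4, Sema4b had 0.09 (SE 0.07), Sema4c, a ligand of Plxnb2, 0.02 (SE 0.10, with 7.27% of its exonic length shared with the antisense D430040D24Rik), Sema4d, the ligand of Plxnb1, -0.17 (SE 0.11), and Sema4g -0.05 (SE 0.07). Sema5a and Sema5b, which keep inner retinal neurites in their layer through Plxna1 and Plxna3, had 0.06 (SE 0.12) and -0.30 (SE 0.24). In class 6, Sema6b had 0.15 (SE 0.10), Sema6c 0.04 (SE 0.09) and Sema6d, which takes part in axon crossing at the optic chiasm, -0.17 (SE 0.13). Sema6b reached 0.35 in libraries 1 and 2 alone and -0.0432 in libraries 3 and 4 alone.

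Both neuropilins had positive fold changes, and that of Nrp1 was the tighter. Nrp1, the binding receptor of Sema3a and also a receptor of VEGF-A through which ganglion cell axons are drawn across the chiasm, had 1024, 1211, 1049 and 1055 normalized reads in NPC1-deficient 1 to 4, against 897, 1004, 969.6 and 883 in wildtype 1 to 4. Every NPC1-deficient library lay above every wildtype library, by a small margin between NPC1-deficient 1 and wildtype 2. The log2 fold change of Nrp1 (chromosome 8, 128358604 to 128503363, plus strand, mm10) was 0.21 (SE 0.07, 95% interval 0.05 to 0.37, limma adjusted p = 0.458). It was 0.23 for the first pair of libraries (1 and 2) and 0.19 for libraries 3 and 4. Nrp2, the receptor of Sema3f, had 1484, 1755, 1268 and 1218 in NPC1-deficient 1 to 4, against 1452, 1406, 1254 and 1094 in wildtype 1 to 4. Its groups overlapped, with libraries 1 and 2 of each group above its libraries 3 and 4, and the log2 fold change was 0.13 (SE 0.12, 95% interval -0.13 to 0.39).

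Among the plexins, none of the 8 tested reached an unadjusted p under 0.05, and 6 had a positive fold change. Plxna1, a signalling partner of Nrp1 and a receptor of Sema5a and Sema6d, had 2194, 2272, 1962 and 2041 normalized reads in NPC1-deficient 1 to 4, against 2139.5, 1761, 1947 and 1751 in wildtype 1 to 4. Wildtype 1 lay among the NPC1-deficient libraries and the other 3 wildtype libraries below them. Plxna1 had a log2 fold change of 0.16 (SE 0.07, 95% interval -0.0040 to 0.32), and 10.7% of its exonic length overlaps Gm26811 on the opposite strand, whose reads could not be told apart. Plxna3, which transmits Sema3f signals with Nrp2, had 1462, 1588, 1451 and 1479 in NPC1-deficient 1 to 4, against 1346, 1466, 1479.5 and 1235 in wildtype 1 to 4. The groups overlapped, and the log2 fold change was 0.12 (SE 0.07, 95% interval -0.03 to 0.27).

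The other class A plexins were Plxna2, at -0.06 (SE 0.12), and Plxna4, a receptor of Sema6a and Sema3a, at 0.25 (SE 0.32) from 17.4 to 44.0 normalized reads in NPC1-deficient and 16.1 to 37.6 in wildtype libraries. Plxnb1 had 0.05 (SE 0.14) and Plxnb2 0.02 (SE 0.10). Plxnc1, the receptor of Sema7a, had 0.11 (SE 0.11), and Plxnd1, the receptor of Sema3e, -0.15 (SE 0.20). Plxnb1 was at -0.19 within libraries 1 and 2 and 0.29 within libraries 3 and 4, and Plxnd1 at 0.12 and -0.43. Over all 30 members, the sign of the fold change was the same in both library sets for 17, and over all 15386 genes for 7018.

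**Figure D4:**
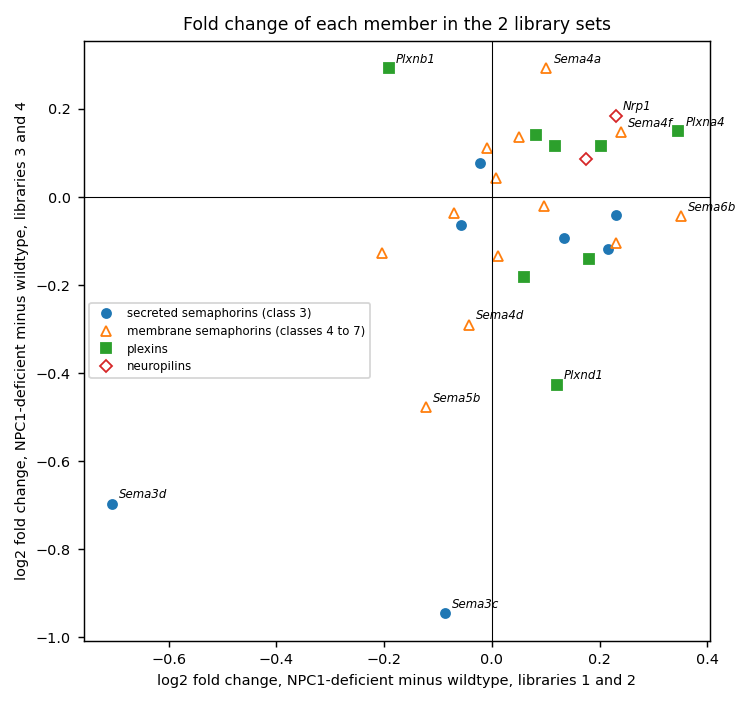
Log2 fold change of the 30 members, NPC1-deficient minus wildtype, within libraries 1 and 2 (x axis) and within libraries 3 and 4 (y axis); each point is 1 gene from 2 libraries a group, and the marker gives its class. Sema3d lies at about -0.70 on both axes, Nrp1 and Sema4f are positive on both, and Sema3c, Plxnb1 and Plxnd1 differ between the axes. The groups of Sema3d, Nrp1 and Sema4f did not overlap, which fixes their sign on both axes.

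Genes that work with the family were read from 3 lists of partners, and none of the 53 tested passed. Of 12 receptor partners and co-receptors 10 were tested, 6 positive and 4 negative, with a median log2 fold change of 0.02. Trem2 and Tyrobp, which form a signalling complex with Plxna1 in myeloid cells, had -1.44 (SE 0.41, limma adjusted p = 0.224) and -1.02 (SE 0.37, limma adjusted p = 0.465). Both are microglial genes, and the microglial markers Csf1r and Aif1 had -1.89 and -0.91. In wildtype 1, Trem2 (78.7) and Tyrobp (122) lay within the NPC1-deficient range, at 47.5 to 102.5 and 102.2 to 198.4. Kdr, the VEGF receptor that pairs with Nrp1, had 114, 153, 191 and 192 normalized reads in NPC1-deficient 1 to 4, against 413, 208, 388 and 209 in wildtype 1 to 4. All NPC1-deficient libraries were below all wildtype ones, at -0.86 (SE 0.24, limma adjusted p = 0.233). Cntn2, an axonal adhesion molecule, had 0.25 (SE 0.08, limma adjusted p = 0.381). Among other receptors and neuropilin ligands, 6 of 9 were tested, 4 positive and 2 negative, with a median of 0.04. Vegfa, the Nrp1 ligand, had -0.21 (SE 0.08, limma adjusted p = 0.464), Cd72, a receptor of Sema4d on immune cells, -0.49 (SE 0.25), Itgb1, a subunit of the Sema7a receptor, 0.09 (SE 0.06) and Pgf 0.12 (SE 0.18). All 37 signal transducers were tested, 20 positive and 17 negative, with a median of 0.01. Fes, a kinase behind class A plexins, had -0.59 (SE 0.21, limma adjusted p = 0.462), Farp1 0.20 (SE 0.10), Dpysl5, a collapsin response mediator, 0.12 (SE 0.06), and the GTPase gene Rhod 0.72 (SE 0.42).

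Most members averaged higher in 1 set of libraries than in the other. Libraries 1 and 2 of both genotypes form 1 set and libraries 3 and 4 the other, as a second label field divides them. That field calls the first set wildtype and the second homozygous, against the titles and against Npc1. Of the 30 members, 24 (80%) were higher in libraries 1 and 2 than in 3 and 4, against 48.7% of all genes tested. In both genotypes alike, 17 members (56.7%) were higher and 4 (13.3%) lower, against 27.6% and 28.7% of all genes. The median log2 difference, libraries 1 and 2 minus 3 and 4, was 0.13 over the members and -0.0050 over all genes. The values of 5 members, Sema6a, Sema4b, Sema5b, Nrp2 and Sema3a, lay higher in libraries 1 and 2 without overlap, against 5.89% of all genes. None lay lower without overlap, against 3.63% of all genes. Nrp2 differed by 0.38 in NPC1-deficient and 0.29 in wildtype libraries, Sema5b by 0.78 and 0.42, and Plxna4 by 0.86 and 0.67. Sema4c, Sema3d, Sema3g and Sema3c were lower in libraries 1 and 2 of both genotypes. The members are long transcripts, with a median exon length of 7800 bases against 4231 for all genes tested, and over 15235 genes the rank correlation of exon length with the difference between the sets was 0.27. The points of that correlation share the same 8 libraries, and the part of length in the members' difference was not tested. With the genotype fold change the rank correlation of exon length was -0.03.

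**Figure D5:**
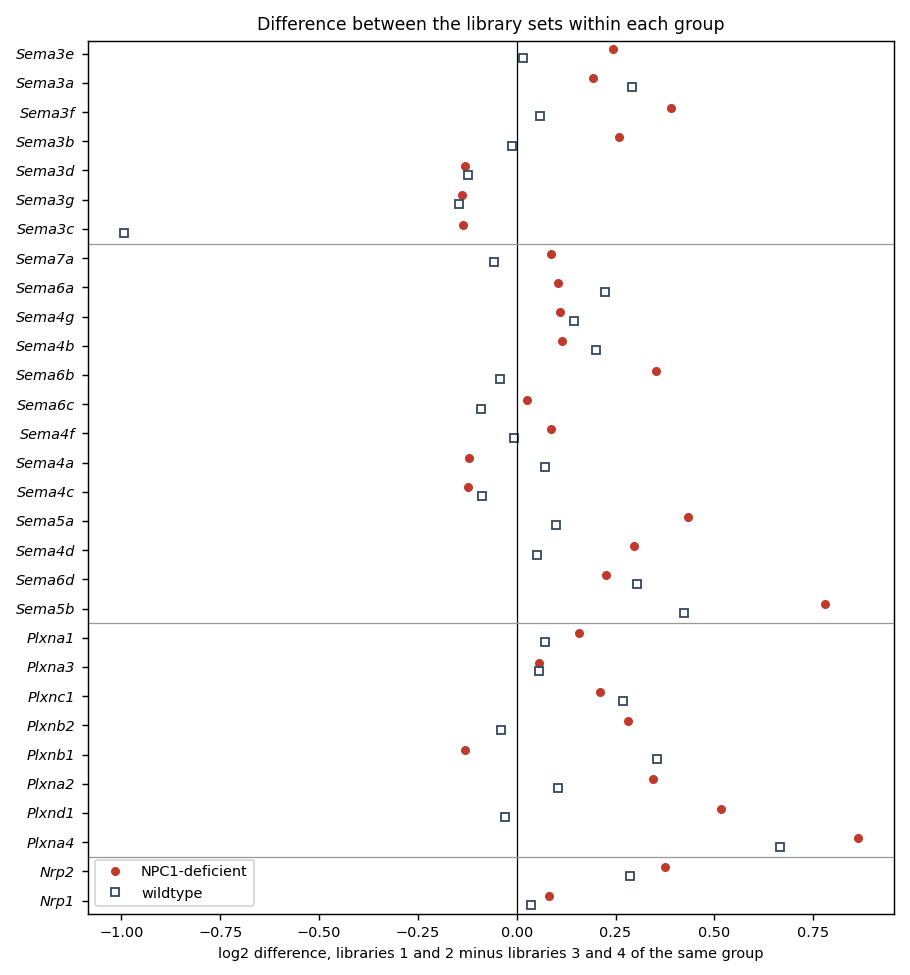
Log2 difference between libraries 1 and 2 and libraries 3 and 4 of the same genotype, for each of the 30 members; red circles are NPC1-deficient and open squares wildtype, each the difference of 2-library means. Most points lie right of 0 in both genotypes, while Sema4c, Sema3d, Sema3g and Sema3c lie left of 0 in both.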

How the data were processed

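Per the labels' protocols, the 8 libraries of retinal ganglion cell RNA came from a TruSeq v2 preparation, in which strand is lost. The submitters' processing notes name mm10 as the build and list HTSeq 0.5.4p3, CASAVA 1.8.2 and DESeq2 1.0.19 with no roles; aligner and annotation were not given there. Each deposited value is a signal normalized by library: all 199536 values were whole multiples of 1 step per library, within 1e-06 of a read, as a read count divided by a size factor would be. In 2 libraries that step was very close to 1. The value of 3 reads that a 0 allows covers counting error only, whereas the 95% intervals of fold changes come from the spread between libraries.

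Genes with a mean value of at least 10 were compared as log2(value + 1), which understates fold changes of low genes, with limma 3.58.1 in R 4.3.3 (mean-variance trend, no covariate, Benjamini-Hochberg at 0.05 over all genes). Groups follow titles and descriptions. Recovered reads were also tested with edgeR 4.0.16 (quasi-likelihood) and DESeq2 1.42.0. Other alternatives were pseudocounts, filters, scalings, robust moderation, the replicate block, the library set, and leaving out libraries. Limma was tested on simulated data. Exon lengths are unions over all GENCODE M21 transcripts, on mm10, where 24471 of 24942 identifiers were found. They can exceed the transcripts in use and so lower per-kb levels. Every tested member is named, and values by library are given for members with an unadjusted p under 0.05, without overlap, or among the 2 most abundant per kb of their class. Up to 4 partners of each list with the smallest p are named. Kdr by library, and members named for library sets, were chosen after their values were seen. Members and lists were chosen with earlier results of these data known. No pairing by replicate number was seen in the values: correlations of deviations between same-numbered libraries ran from -0.07 to -0.02. These cannot tell whether same-numbered libraries were prepared together.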

Additional observations from a re-analysis of the deposited data

Results flagged for a closer look

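In 4 cases 1 of 4 libraries of a group stood far from the other 3, measured as its gap to the nearest library over the range of the group, among 62 groups of 4 looked at (30 members and Npc1, in each genotype). Chance alone gives about 1 in 20 groups. NPC1-deficient 2 was high in Nrp1, at 1211 against 1024 to 1055 in the other NPC1-deficient libraries. NPC1-deficient 1 was low in Sema3d, at 74.4 against 91.6 to 94.1. Wildtype 3 was high in Sema3g, at 69.0 against 57.0 to 58.3. NPC1-deficient 1 was high in Npc1 itself, at 139.75 against 66.1 to 70.0. Without NPC1-deficient 2 the log2 fold change of Nrp1 was 0.15, and without NPC1-deficient 1 that of Sema3d was -0.62.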

How the results depend on the processing

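No member passed in the limma fits or with edgeR, and DESeq2 called 1 (Sema3d, -0.75, adjusted p = 0.0275). The number of members called was 0 without any 1 library, and also 0 without wildtype 1 and NPC1-deficient 1 together, a fit added after the data were seen. The members' median log2 fold change was 0.0894 in libraries 1 and 2 alone and -0.0386 in libraries 3 and 4 alone, and without single libraries it ran from -0.0102 (without NPC1-deficient 2) to 0.0766 (without NPC1-deficient 3). Npc1 passed under every alternative, at -3.51 to -3.16 without single libraries. Sema3d, Sema4f, Sema4a and Nrp1 kept their direction under all alternatives. For Sema3d, Sema4f and Nrp1, whose groups did not overlap, leaving out libraries or taking 1 set alone could not have reversed it. Over all genes, where 16 were called, the count was 10 with a minimum of 50, 34 with the replicate block, 99 with the library set as a term, 57 in libraries 1 and 2 alone, 335 in libraries 3 and 4 alone, 246 with DESeq2, 170 without wildtype 1 and NPC1-deficient 1, and 2 (without NPC1-deficient 3) to 144 (without wildtype 1) without single libraries; the cause was not tested. It was 26 without NPC1-deficient 1, 4 without NPC1-deficient 2, 33 without NPC1-deficient 4, 4 without wildtype 2, 5 without wildtype 3 and 35 without wildtype 4. With the block no member passed either, and since no pairing by number was seen in the values it was not used further.

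Several members changed sign in places, none of them past the threshold. Most had a fold change near 0, while Sema6b had 0.15 and Plxnd1 -0.15 with all libraries. Libraries 1 and 2 alone gave 0.0121 for Sema7a, -0.0084 for Sema6a, -0.19 for Plxnb1, 0.0590 for Plxna2, 0.12 for Plxnd1 and -0.0214 for Sema3a. Libraries 3 and 4 alone gave -0.0432 for Sema6b, -0.0200 for Sema6c, -0.10 for Sema5a, -0.14 for Plxnb2, -0.0921 for Sema3e, -0.12 for Sema3f and -0.0417 for Sema3b. Quantile scaling gave 0.0271 for Sema3g. Leaving out single libraries gave -0.11 to 0.0068 for Sema7a, -0.0881 to 0.0163 for Sema4g, -0.0205 to 0.0879 for Sema6c, -0.0347 to 0.0924 for Sema4c, -0.0539 to 0.16 for Sema5a, -0.0674 to 0.0941 for Plxnb2, -0.0675 to 0.16 for Plxnb1, -0.14 to 0.0322 for Plxna2, -0.0242 to 0.0736 for Sema3e, -0.0473 to 0.11 for Sema3a, -0.0604 to 0.16 for Sema3f, -0.0072 to 0.18 for Sema3b and -0.12 to 0.0030 for Sema3g. Without wildtype 1 and NPC1-deficient 1 together, Sema3e was at -0.0291, Sema5a at -0.0042 and Plxnb1 at 0.20. Plxnb3 was too low to test.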
